A study of Mus musculus with 2 samples.

Results

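The subunits of oxidative phosphorylation were followed across the non-cardiomyocyte cells of the mouse heart, with and without pressure overload. Members were taken by gene symbol: the protein genes of the mitochondrial genome (mt-Nd, mt-Co, mt-Atp and mt-Cytb) and the nuclear Nduf, Sdh, Uqcr, Cox4 to Cox8 and Atp5 genes, leaving out assembly factors named Ndufaf and pseudogenes. The rule found 98 of the 31053 genes in the tables, 13 of them mitochondrial and 85 nuclear, and 84 of the nuclear ones had UMIs (Cox8c had none). By complex, the nuclear genes comprised 36 of complex I, 4 of complex II, 8 of complex III, 17 of complex IV and 16 of complex V. The remaining nuclear names were kept apart: Ndufa4 and Ndufa4l2, a pair of alternative subunits now placed in complex IV; Cox7a2l, a factor of respiratory supercomplexes; and Atp5s, which matches the symbol rule although its product is not a structural subunit.

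Both libraries came from hearts of male wildtype C57BL6/J mice at day 20 after surgery. One held cells after transverse aortic constriction (TAC), a ligature around the aortic arch that loads the left ventricle with pressure, and the other held cells after a sham operation. Hearts were digested with enzymes, cardiomyocytes were settled out, red cells and debris were removed, and viable single cells were sorted by flow cytometry before droplet capture with 3′ counting. There was 1 library per group, the labels used here do not say how many animals each one holds, and no test between the groups is possible: every interval below covers counting error only, and surgery, animal and library cannot be told apart. All cell classes come from the same 2 libraries, so a direction shared by several classes is not a repeat of it.

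The sham library held 8426 barcodes with 42490230 UMIs and the TAC library 8901 barcodes with 96003109 UMIs, so the TAC cells were read more deeply. After filters, which include a limit of 15% mitochondrial UMIs per barcode, and removal of called doublets, 7865 sham and 7837 TAC barcodes remained, with median UMIs of 4878 and 11154. Marker gates put 7518 and 7345 of them in 9 classes and left 347 and 492 ungated. Fibroblast-like cells numbered 6114 in sham and 5413 in TAC, macrophage-like cells 1011 and 778, and endothelial-like cells 139 and 599. Smaller classes were lymphatic endothelial-like (66 and 302), endocardial-like (58 and 64), pericyte-like (34 and 69), B cell-like (49 and 41) and T and NK-like cells (44 and 39). Neutrophil-like cells (3 and 40) are too few in the sham library for any comparison. The libraries shared 15 barcodes. Levels are given as CPM, the UMIs of a gene per 1000000 UMIs of the class in that library. RNA content per cell is not known from such shares.

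Oxidative phosphorylation is carried out by 5 complexes in the inner mitochondrial membrane. Complexes I and II feed electrons from NADH and succinate into the ubiquinone pool, complex III passes them to cytochrome c, and complex IV reduces oxygen to water. The proton gradient that builds up drives complex V, the ATP synthase. Complex II is encoded wholly in the nucleus, and the other complexes are built from subunits of both genomes. Mitochondrial genes are transcribed as long polycistronic RNAs from both strands of the circular genome and are then cut apart, whereas each nuclear subunit has a promoter of its own. In the heart the pathway is best known from cardiomyocytes. The cells described here are the stromal, vascular and immune cells around them.

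Promoters of 4 nuclear members are shown because the values below turn on their genes. Ndufa4 has the paralog that differed most between cell classes, Atp5k and Atp5e were among the members with the largest TAC to sham ratios, and Uqcrfs1 had the lowest ratio in fibroblast-like cells. The stretches run from 250 to 51 bases before the RefSeq transcription start (assembly GRCm38.p6), on the minus strand, 5′ to 3′. Capitals mark a match to a searched motif.
Ndufa4, chr6:11907501-11907700: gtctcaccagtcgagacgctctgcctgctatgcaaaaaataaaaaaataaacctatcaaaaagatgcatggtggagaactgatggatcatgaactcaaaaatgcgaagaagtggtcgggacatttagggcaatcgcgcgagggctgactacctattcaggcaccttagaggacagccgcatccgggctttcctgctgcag
Atp5k, chr5:108434450-108434649: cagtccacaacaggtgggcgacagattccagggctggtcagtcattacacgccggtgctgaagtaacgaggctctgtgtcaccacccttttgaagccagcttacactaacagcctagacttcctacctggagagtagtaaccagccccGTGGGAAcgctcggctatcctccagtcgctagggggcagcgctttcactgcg
Atp5e, chr2:174464152-174464351: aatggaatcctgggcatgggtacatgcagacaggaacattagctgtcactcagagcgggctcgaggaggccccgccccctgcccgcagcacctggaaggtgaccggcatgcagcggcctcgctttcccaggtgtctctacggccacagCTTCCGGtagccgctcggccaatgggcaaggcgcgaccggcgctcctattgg
Uqcrfs1, chr13:30545367-30545566: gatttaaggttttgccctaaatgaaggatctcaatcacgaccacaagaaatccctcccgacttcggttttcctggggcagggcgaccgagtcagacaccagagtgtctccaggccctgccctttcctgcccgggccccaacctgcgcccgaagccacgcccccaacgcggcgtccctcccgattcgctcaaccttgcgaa

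Of the 85 nuclear members, 69 matched an entry of the RefSeq promoter table, and 5 motifs were searched on both strands in the same window. These 69 members have 74 starts, and a gene counts once if any of its starts holds the motif. The NRF1 motif is GCGCA and GCGC joined by any base and is bound by a factor long linked to respiratory genes. It was present in 8 of the 69 members (11.6%) and in 2.58% of all 27025 genes in the promoter table. The ETS motif CCGGAAG, of the kind bound by GABP, was in 5 of them (7.25%, all genes 4.58%), and its reverse complement is the stretch marked in Atp5e. The YY1 motif AAGATGGC was in 1 (1.45%, all genes 1.56%), and the hypoxia response core ACGTGC in 2 (2.90%, all genes 4.27%). The RBPJ motif TTCCCAC was in 2 (2.90%, all genes 5.00%), 1 of them being the marked stretch in Atp5k. These are matches of letters, not binding sites.

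Mitochondrially encoded transcripts took a larger share of UMIs in TAC than in sham in the 3 classes with the most barcodes, by little in fibroblast-like cells and by more in macrophage-like and endothelial-like cells. In fibroblast-like cells the 13 genes together had 32850 CPM in sham and 33932 CPM in TAC, a ratio of 1.03 (95% interval 1.03 to 1.04). Macrophage-like cells had 46882 and 54864 CPM (1.17, 1.16 to 1.18). Endothelial-like cells had 39306 and 48620 CPM (1.24, 1.22 to 1.26). The range over the smaller classes was from 1.03 in B cell-like cells (54839 and 56536 CPM) to 1.40 in T and NK-like cells (35594 and 49905 CPM). Lymphatic endothelial-like, endocardial-like and pericyte-like cells lay between these, at 1.16, 1.11 and 1.31.

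The nuclear subunits were also higher in sum in these 3 classes, by less than the mitochondrial genes outside fibroblast-like cells. Over members with a median annotated transcript length of 700 bases or more the ratios were 0.930, 0.957 and 0.957 in fibroblast-like, macrophage-like and endothelial-like cells. That turn depends on the length used. By the longest annotated transcript, members from 700 to 1000 bases had ratios of 1.06, 1.07 and 1.12 in the same order. Those of 1000 bases or more had 0.955, 1.01 and 0.986. The sum of all nuclear members was 12694 CPM in sham and 13501 CPM in TAC fibroblast-like cells (1.06, 1.06 to 1.07). It was 13300 and 14580 CPM in macrophage-like cells (1.10, 1.09 to 1.11) and 15104 and 16856 CPM in endothelial-like cells (1.12, 1.08 to 1.15). Pericyte-like cells had the highest nuclear sum in both libraries among classes with at least 30 barcodes in each, 23586 and 22868 CPM. Their ratio of 0.97 (0.92 to 1.02) did not leave out 1. This sum includes Ndufa4l2, which alone had 3184 CPM in sham and 2505 CPM in TAC pericyte-like cells. Endocardial-like cells had 14795 and 18458 CPM. The number of mitochondrial UMIs per nuclear UMI of the pathway was 2.59 and 2.51 in sham and TAC fibroblast-like cells, 3.52 and 3.76 in macrophage-like cells, and 2.60 and 2.88 in endothelial-like cells. Among classes with at least 30 barcodes in each library it was highest in B cell-like cells, at 4.35 and 4.02.

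**Figure D1:**
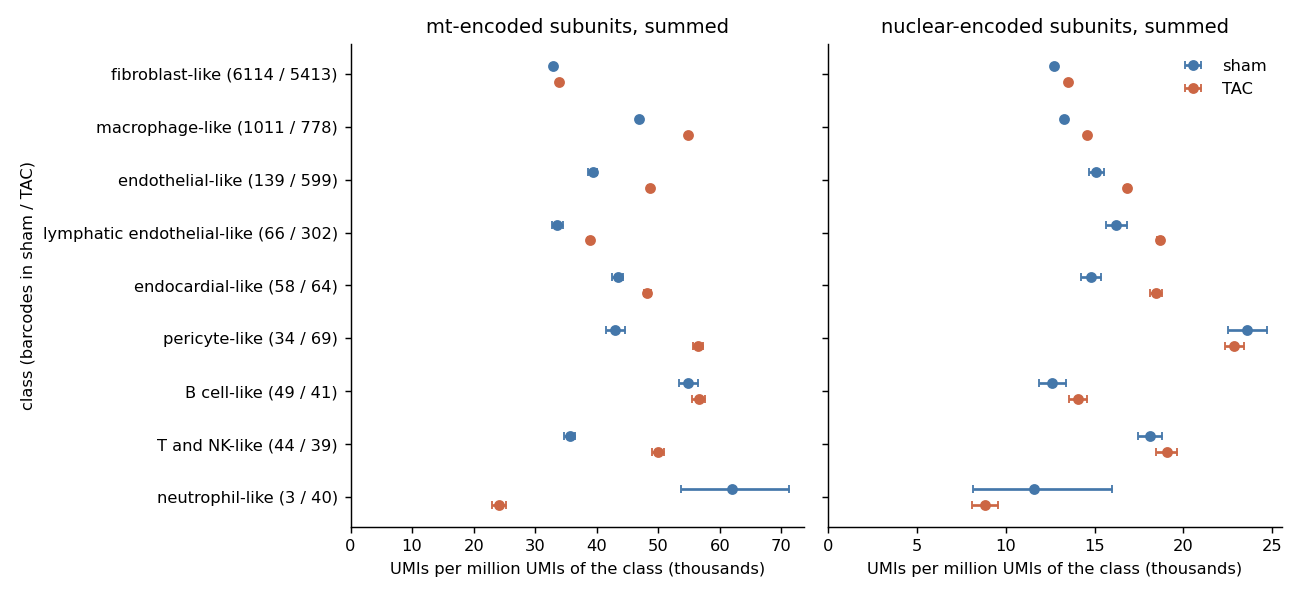
Summed CPM, in units of 1000, of the mitochondrial subunits (left) and the nuclear subunits (right) in sham and TAC for each cell class, with its barcodes in sham and TAC in brackets and 95% Poisson intervals for counting error only. Macrophage-like and endothelial-like cells differ more between the libraries in the mitochondrial sum than fibroblast-like cells, whose sums are 32850 and 33932 CPM.

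Several measures of the libraries moved alongside these sums, and their part in the differences was not tested. Median UMIs per fibroblast-like barcode were 4984 in sham and 12118 in TAC, and the median mitochondrial share was 3.11% and 3.32%. Ribosomal protein transcripts were also higher in TAC, taking 8.04% of UMIs in sham and 9.47% in TAC fibroblast-like cells (ratio 1.18, with 1.17 in macrophage-like and 1.15 in endothelial-like cells). Early response and heat shock genes, which dissociation is known to induce, were lower in TAC: 16699 and 8622 CPM in fibroblast-like cells (0.516), with 0.673 in macrophage-like and 0.616 in endothelial-like cells. The nuclear RNAs Malat1 and Neat1 summed to 19502 and 14420 CPM in fibroblast-like cells (0.739), with 0.725 in macrophage-like and 0.596 in endothelial-like cells. Cardiomyocyte transcripts summed to 190 and 265 CPM in fibroblast-like cells, 170 and 317 CPM in macrophage-like cells, and 276 and 293 CPM in endothelial-like cells. Haemoglobin transcripts summed to 128 CPM in sham and 6731 CPM in TAC endothelial-like cells.

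The mitochondrial genes did not move as a block. Relative to the small change of the whole set in fibroblast-like cells, mt-Nd3 was over 2-fold higher, mt-Cytb and the complex IV genes were higher, and mt-Nd4l, mt-Nd5 and mt-Atp6 were lower. mt-Nd3, a small complex I subunit in the membrane arm (chrM:9459-9806 in mm10, plus strand), had 98.8 CPM in sham and 226 CPM in TAC fibroblast-like cells (2.29, 2.20 to 2.38). Its values were 144 and 357 CPM in macrophage-like cells (2.49, 2.31 to 2.69) and 131 and 331 CPM in endothelial-like cells (2.53, 1.88 to 3.48). The TAC level was the higher one in each of the 8 classes other than neutrophil-like cells, for example 124 and 229 CPM in lymphatic endothelial-like cells and 93 and 381 CPM in pericyte-like cells.

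mt-Nd4l, its near neighbour on the same strand (chrM:9877-10173) and another membrane subunit of complex I, went the other way. It had 363 and 225 CPM in fibroblast-like cells (0.618), 418 and 286 CPM in macrophage-like cells (0.68) and 375 and 211 CPM in endothelial-like cells (0.56). Its gene overlaps the start of mt-Nd4, whose values hardly differed in fibroblast-like cells (2912 and 2889 CPM) and were higher in TAC macrophage-like cells (4104 and 4979 CPM, 1.21) and endothelial-like cells (3551 and 4464 CPM, 1.26). Set against mt-Nd4 within each library, mt-Nd3 had 0.0339 UMIs per mt-Nd4 UMI in sham and 0.0783 in TAC fibroblast-like cells, and mt-Nd4l had 0.125 and 0.0777. Among fibroblast-like barcodes above the 15% limit, 30 in sham and 119 in TAC, mt-Nd3 made up 2.86 and 8.05 of every 1000 mitochondrial UMIs and mt-Nd4l 11.1 and 4.23. In the barcodes kept, these were 3.01 and 6.66 for mt-Nd3 and 11.1 and 6.62 for mt-Nd4l.

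The other complex I genes of the mitochondrial genome split by class. mt-Nd1 had 1839 and 1837 CPM in fibroblast-like cells, 3017 and 2736 CPM in macrophage-like cells (0.907) and 2058 and 2499 CPM in endothelial-like cells (1.21). mt-Nd2 had 1685 and 1601 CPM (0.950), 2410 and 2637 CPM (1.09) and 2053 and 2608 CPM (1.27) in the same order. mt-Nd5, the distal proton-pumping subunit, was lower in TAC in all 3 classes, with 380 and 308 CPM (0.81), 575 and 445 CPM (0.77) and 566 and 339 CPM (0.60). mt-Nd6, the protein gene on the other strand, which overlaps mt-Nd5, had 15.9 and 15.7 CPM in fibroblast-like cells and 15.3 and 14.2 CPM in macrophage-like cells.

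mt-Cytb, the cytochrome b of complex III (chrM:14145-15288, plus strand), had the highest ratio among mitochondrial genes above 1000 CPM in each of the 3 classes. It had 3814 and 4447 CPM in fibroblast-like cells (1.17), 4616 and 6957 CPM in macrophage-like cells (1.51) and 4279 and 6734 CPM in endothelial-like cells (1.57). The catalytic core of complex IV was higher in TAC in each of these classes. mt-Co1 had 5272 and 5893 CPM in fibroblast-like cells (1.12), 8678 and 10259 CPM in macrophage-like cells (1.18) and 7133 and 8422 CPM in endothelial-like cells (1.18). mt-Co2 had ratios of 1.14, 1.22 and 1.29 in that order, and mt-Co3 had ratios of 1.04, 1.09 and 1.27.

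mt-Atp6, the membrane subunit through which protons pass in the ATP synthase, was lower in TAC fibroblast-like cells (6176 and 5378 CPM, 0.871). It was higher in TAC macrophage-like cells (6848 and 7832 CPM, 1.14) and endothelial-like cells (6877 and 7320 CPM, 1.06). The overlapping mt-Atp8 had far fewer UMIs, with 11.2 and 13.8 CPM in fibroblast-like cells, and reads of overlapping genes cannot be divided with certainty. In sum, the mitochondrial complex I genes had TAC to sham ratios of 0.974, 1.07 and 1.20 in fibroblast-like, macrophage-like and endothelial-like cells, complex IV ratios of 1.09, 1.16 and 1.24, and complex V ratios of 0.871, 1.14 and 1.06.

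**Figure D2:**
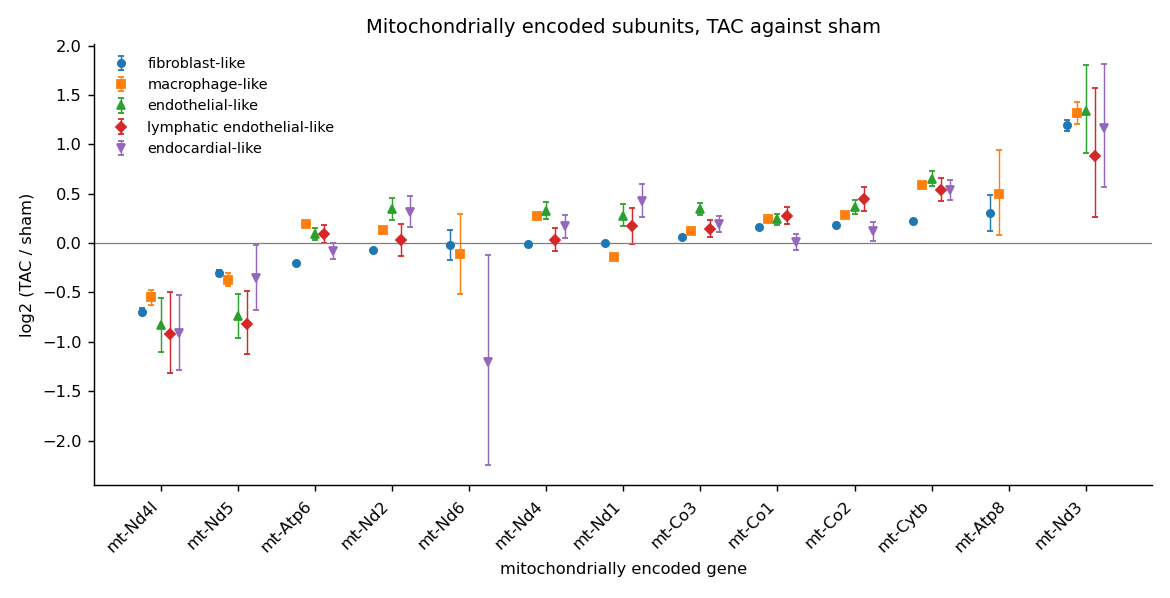
Log2 of the TAC to sham ratio of each mitochondrial gene in 5 cell classes, with 95% intervals for counting error only; points with under 10 UMIs in either library are not drawn. mt-Nd3 lies highest, from ratios of 2.29 to 2.53 in the 3 classes with the most barcodes, and mt-Nd4l lies at 0.56 to 0.68 in them.

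Nuclear members were counted where sham or TAC reached 10 CPM. More of them were at least 25% higher in TAC than at least 20% lower, the same distance on a ratio scale. In fibroblast-like cells 24 of 76 were higher and 8 lower, where 15.9% and 21.5% of all genes at that level were. Macrophage-like cells had 28 of 75 higher and 5 lower (all genes 19.9% and 18.6%). Endothelial-like cells had 29 of 76 higher and 6 lower (all genes 25.6% and 35.2%), and 27 and 3 of these had an interval that left out 1 (all genes 7.81% and 13.1%). Lymphatic endothelial-like cells had 28 of 76 higher and 7 lower (all genes 26.8% and 36.8%), and endocardial-like cells 36 of 78 higher and 8 lower (all genes 31.4% and 36.4%). The median log2 ratio of the nuclear members was 0.11, 0.08 and 0.21 in the 3 classes, and that of all genes tested was -0.07, -0.01 and -0.11. At least 2-fold higher in TAC were 3 members in fibroblast-like cells (all genes 3.27%), 1 in macrophage-like cells (3.97%) and 5 in endothelial-like cells (7.47%), and no nuclear member was 2-fold lower in these classes (all genes 2.63%, 1.94% and 9.98%).

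In complex I, 11 of 36 nuclear members were at least 25% higher in TAC fibroblast-like cells and 3 at least 20% lower, close to the share over all nuclear members. Its nuclear sum had ratios of 1.07, 1.11 and 1.12 in fibroblast-like, macrophage-like and endothelial-like cells. The higher members named here are accessory subunits, which surround the catalytic core. Ndufa3 had 46.6 CPM in TAC fibroblast-like cells, 2.12 times its sham level, with 29.7 and 57.1 CPM in macrophage-like cells (1.92) and 19.9 and 67.3 CPM in endothelial-like cells (3.38). Ndufb2 had 33.4 and 63.0 CPM in fibroblast-like cells (1.89) and a ratio of 1.90 in macrophage-like cells. Its gene, like that of Cox4i1 below, overlaps another annotated gene on the same strand, so its count is uncertain to that extent. Ndufa1, an X-linked subunit needed for assembly of the membrane arm, had 43.3 and 77.2 CPM in fibroblast-like cells (1.78), with ratios of 1.45 and 2.33 in macrophage-like and endothelial-like cells.

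Lower in TAC were Ndufb10 and Ndufab1. Ndufb10, of the membrane arm, had 243 and 176 CPM in fibroblast-like cells (0.72), 217 and 172 CPM in macrophage-like cells (0.79) and 227 and 183 CPM in endothelial-like cells (0.80). Ndufab1, the mitochondrial acyl carrier protein, which also serves fatty acid and lipoate synthesis, had 154 and 121 CPM (0.78), 124 and 97.4 CPM (0.79) and 219 and 120 CPM (0.55) in the same order.

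Complex II was the complex whose nuclear sum was lower in TAC in all 3 classes. Its sum was 405 and 378 CPM in fibroblast-like cells (0.932), with ratios of 0.966 (0.920 to 1.02) in macrophage-like cells and 0.887 (0.750 to 1.05) in endothelial-like cells, whose intervals did not leave out 1. Sdhc, 1 of the 2 subunits that anchor the enzyme in the membrane (chr1:171127165-171150603, minus strand), had the lowest ratio of the 4 genes: 87.3 and 64.7 CPM in fibroblast-like cells (0.74), 108 and 76.9 CPM in macrophage-like cells (0.71) and 102 and 66.6 CPM in endothelial-like cells (0.65). Sdhd, the other anchor, had 83.6 and 77.5 CPM in fibroblast-like cells (0.93). Sdha, the flavoprotein that oxidises succinate, had 127 and 111 CPM (0.87). The iron-sulfur subunit Sdhb was the exception, at 107 and 125 CPM in fibroblast-like cells (1.16), 137 and 157 CPM in macrophage-like cells (1.15) and 114 and 137 CPM in endothelial-like cells (1.20, 0.87 to 1.71).

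Complex III combined members that moved in opposite directions. Its nuclear sum was 1180 and 1330 CPM in fibroblast-like cells (1.13) and had ratios of 1.12 and 1.18 in macrophage-like and endothelial-like cells. The short subunits Uqcr10 (86.7 and 142 CPM, 1.64), Uqcrq (94.3 and 149 CPM, 1.58) and Uqcr11 (75.3 and 115 CPM, 1.52) were higher in TAC fibroblast-like cells. Uqcr11 was also higher in macrophage-like cells (93.6 and 165 CPM, 1.77) and endothelial-like cells (125 and 225 CPM, 1.80). Uqcrfs1, the Rieske iron-sulfur protein that hands electrons on to cytochrome c1 (chr13:30540308-30545362, minus strand), had the lowest ratio of any nuclear member at 50 CPM or more in fibroblast-like cells, 143 and 99.7 CPM (0.70, 0.67 to 0.72). Its values were 172 and 126 CPM in macrophage-like cells (0.73) and 182 and 124 CPM in endothelial-like cells (0.68).

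Complex IV had a higher nuclear sum in TAC in all 3 classes: 2400 and 2723 CPM in fibroblast-like cells (1.13), with ratios of 1.16 in macrophage-like and 1.24 in endothelial-like cells. Cox5b had 96.9 and 158 CPM in fibroblast-like cells (1.63), 122 and 220 CPM in macrophage-like cells (1.81) and 99.5 and 218 CPM in endothelial-like cells (2.19). Cox6b1, on the side of the complex that meets cytochrome c, had ratios of 1.65, 1.68 and 1.77. Cox7c had 170 and 269 CPM in fibroblast-like cells (1.58), and Cox8a, a single-span subunit, 359 and 457 CPM (1.27). Cox4i1, the main isoform of the largest nuclear subunit, was lower: 761 and 569 CPM in fibroblast-like cells (0.75), 906 and 704 CPM in macrophage-like cells (0.78) and 918 and 763 CPM in endothelial-like cells (0.83). Its gene overlaps another annotated gene on the same strand, so its count is uncertain to that extent. Cox7a2l, the supercomplex factor, had 346 and 285 CPM in fibroblast-like cells (0.82).

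Complex V differed little in sum, with ratios of 1.03, 1.06 and 1.05 in fibroblast-like, macrophage-like and endothelial-like cells, while single members differed in both directions. Atp5e, the epsilon subunit of the central stalk (chr2:174461072-174464105, minus strand), had 143 and 322 CPM in fibroblast-like cells (2.26, 2.19 to 2.33), 189 and 361 CPM in macrophage-like cells (1.91) and 171 and 309 CPM in endothelial-like cells (1.81). Atp5k, the small e subunit that joins synthase dimers, had 16.5 and 38.1 CPM (2.31) and 18.8 and 43.9 CPM (2.33) in fibroblast-like and macrophage-like cells, and an endothelial-like ratio of 1.27 (0.70 to 2.53). Atp5j2, the f subunit, had ratios of 1.71, 1.81 and 1.94. Atp5b, the catalytic beta subunit (chr10:128083273-128090391, plus strand), was lower, at 426 and 312 CPM (0.73), 399 and 347 CPM (0.87) and 506 and 444 CPM (0.88). Of the 3 genes for the identical mature c subunit, Atp5g1 had 172 and 228 CPM in fibroblast-like cells (1.33), Atp5g2 243 and 288 CPM (1.18) and Atp5g3 134 and 128 CPM (0.95).

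**Figure D3:**
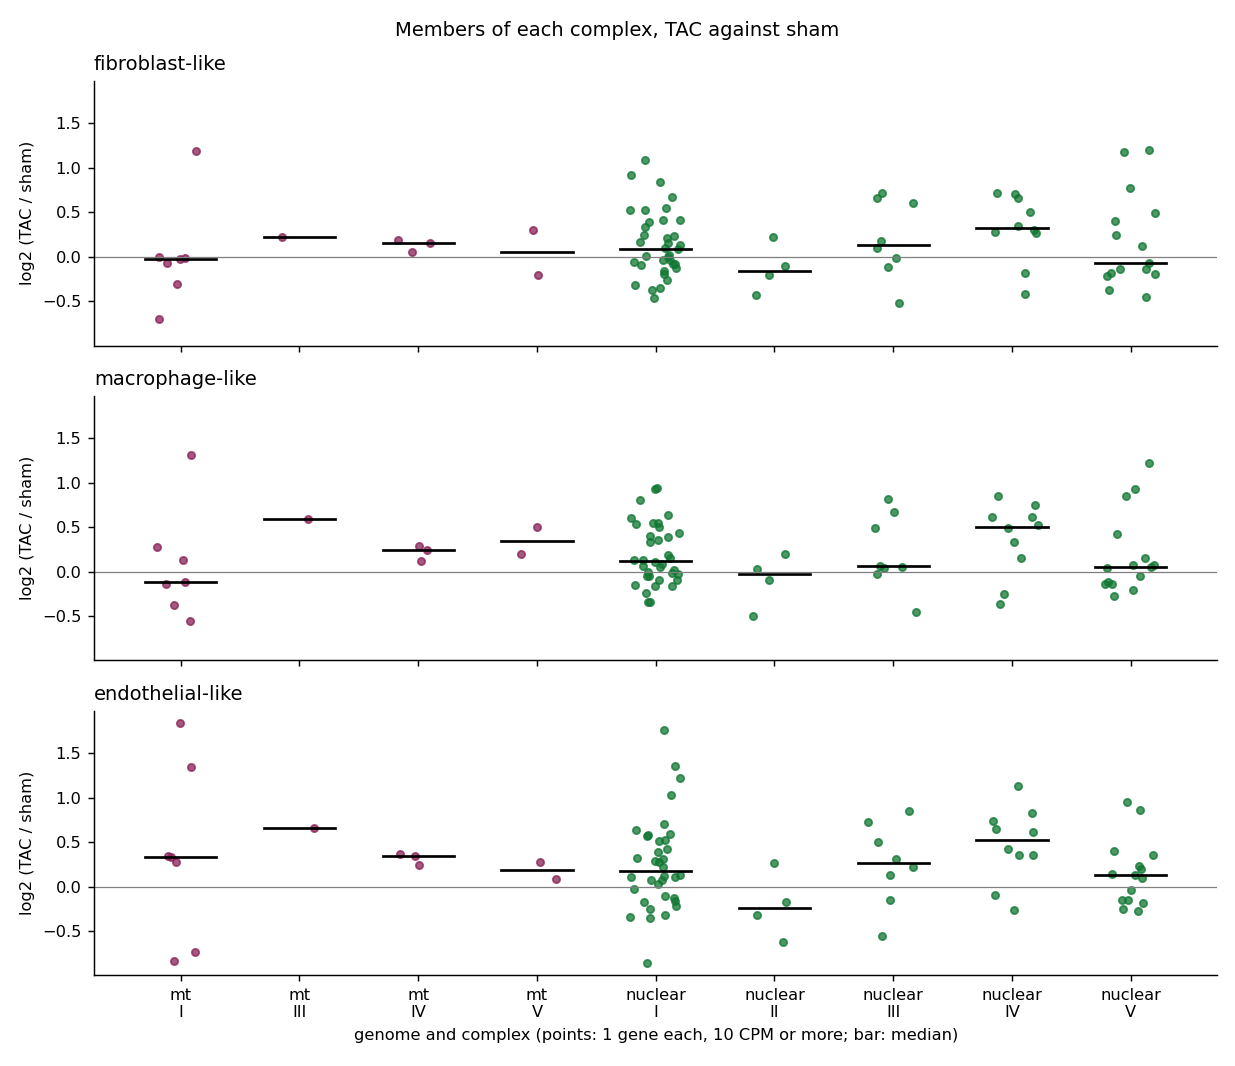
Log2 of the TAC to sham ratio of each member with 10 CPM or more, by genome and complex, in the 3 classes with the most barcodes; each point is 1 gene and each bar the median. Nuclear complex II, whose sums are 0.932, 0.966 and 0.887 of sham, has a median below 0 in each class, and each nuclear complex holds members on both sides of 0.

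The ratio of the nuclear members varied with the length of their transcripts. Spearman's rho between the median annotated transcript length and the log2 ratio was -0.53 over 76 nuclear members in fibroblast-like cells, -0.50 over 75 in macrophage-like cells and -0.48 over 76 in endothelial-like cells. Over 8710 genes tested in fibroblast-like cells it was -0.04. With the longest annotated transcript of each gene, rho over the nuclear members was -0.47, -0.41 and -0.43 in these classes. Over the 8710 genes it was -0.03. These points share 2 libraries and are given as a description. The 10 nuclear members under 500 bases summed to 1208 and 1678 CPM in fibroblast-like cells (1.39, 1.37 to 1.40). Of these, 7 were at least 25% higher: Atp5k, Ndufa1, Atp5e, Ndufa3, Uqcr10, Uqcr11 and Cox6b1. The others, Ndufa4, Uqcrh and Ndufa6, were not, and none was at least 20% lower. Among all genes under 500 bases, 42.6% were higher and 12.5% lower. The 28 members from 500 to 700 bases had a ratio of 1.18, the 19 from 700 to 1000 bases 0.920 and the 19 of 1000 bases or more 0.938.

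The lower sum over members with a median length of 700 bases or more, given above for the 3 largest classes, was not found in endocardial-like cells. There, members from 700 to 1000 bases had a ratio of 1.09 (1.00 to 1.18) and those of 1000 bases or more 1.09 (1.01 to 1.19), while those under 500 bases had 1.59. Ribosomal protein genes under 500 bases behaved alike, 12 of 15 being at least 25% higher in fibroblast-like cells, with a median log2 ratio of 0.66. The 108 other genes of that length had a median of 0.12, and 35.2% were higher. By longest annotated length, however, other genes under 500 bases were also mostly higher in fibroblast-like cells. There 14 of 18 were higher and 1 lower, with a median of 0.52. By that length 5 of 5 nuclear members and 10 of 11 ribosomal protein genes were higher. Single members departed from the pattern: Ndufb2, with a median annotated length of 2413 bases, was among the higher ones, and Ndufb10, with 629 bases, was among the lower. The length of Ndufb2 is a median over annotated transcripts and need not be that of the transcript read here. Whether transcript length, depth or library preparation has a part in the ratios of the short subunits was not tested.

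**Figure D4:**
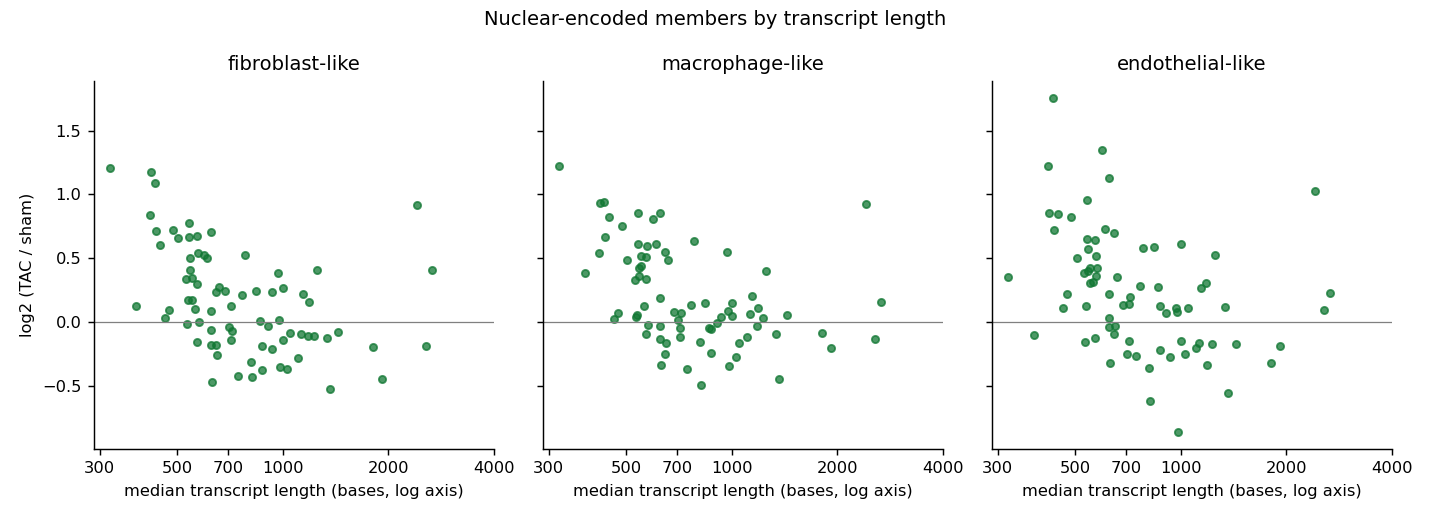
Log2 ratio of TAC to sham against median annotated transcript length in bases (log axis) for the nuclear members in 3 classes; each point is 1 gene. In fibroblast-like cells members under 500 bases have a median of 0.72 and those of 1000 bases or more a median of -0.11.

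The widest differences between cell classes lay in alternative subunits, and they were present in both libraries. Ndufa4l2, the paralog of Ndufa4 that is known as a hypoxia-inducible gene (chr10:127514967-127517154 in mm10, plus strand), had 3184 CPM in sham and 2505 CPM in TAC pericyte-like cells. It had 152 and 179 CPM in fibroblast-like cells (1.18, 1.14 to 1.22) and 2.11 and 3.64 CPM in macrophage-like cells. In endothelial-like cells it had no UMI in sham, which allows up to 8.53 CPM, and 12.8 CPM in TAC. Neither Ndufa4l2 nor Cox4i2 was used to gate pericyte-like cells. The gene overlaps Shmt2 on the opposite strand.

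Ndufa4 itself (chr6:11900292-11907497, minus strand), whose promoter opens the set printed above, was at its lowest in pericyte-like cells, with 26.5 CPM from 2 UMIs in sham and 44.2 CPM from 13 UMIs in TAC. It had 248 and 253 CPM in fibroblast-like cells, 310 and 315 CPM in macrophage-like cells, 469 and 507 CPM in endothelial-like cells and 420 and 522 CPM in endocardial-like cells. Lymphatic endothelial-like cells had less than these other endothelial classes, 130 CPM from 23 UMIs in sham and 268 CPM in TAC. Pericyte-like cells thus held 120 (32.9 to 997) and 56.7 (32.9 to 107) UMIs of Ndufa4l2 per UMI of Ndufa4 in sham and TAC. The same ratio was 0.614 and 0.709 in fibroblast-like cells and 0.00681 and 0.0116 in macrophage-like cells. It is a ratio of UMIs, which 3′ counting does not scale by length.

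Cox4i2, the alternative isoform of Cox4i1 known from lung and from oxygen-sensing cells (chr2:152754173-152765037, plus strand), followed the same division. It had 650 CPM (49 UMIs) in sham and 612 CPM (180 UMIs) in TAC pericyte-like cells. Fibroblast-like cells had 2.33 and 6.89 CPM, and the other classes in which it was read had at most 5.18 CPM. Where it had no UMI the count allows more, up to 35.0 CPM in sham B cell-like cells among classes with at least 30 barcodes in each library. Cox4i1 stayed abundant in pericyte-like cells, at 955 and 758 CPM. The pericyte-like class has 34 and 69 barcodes, so these levels rest on few cells.

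**Figure D5:**
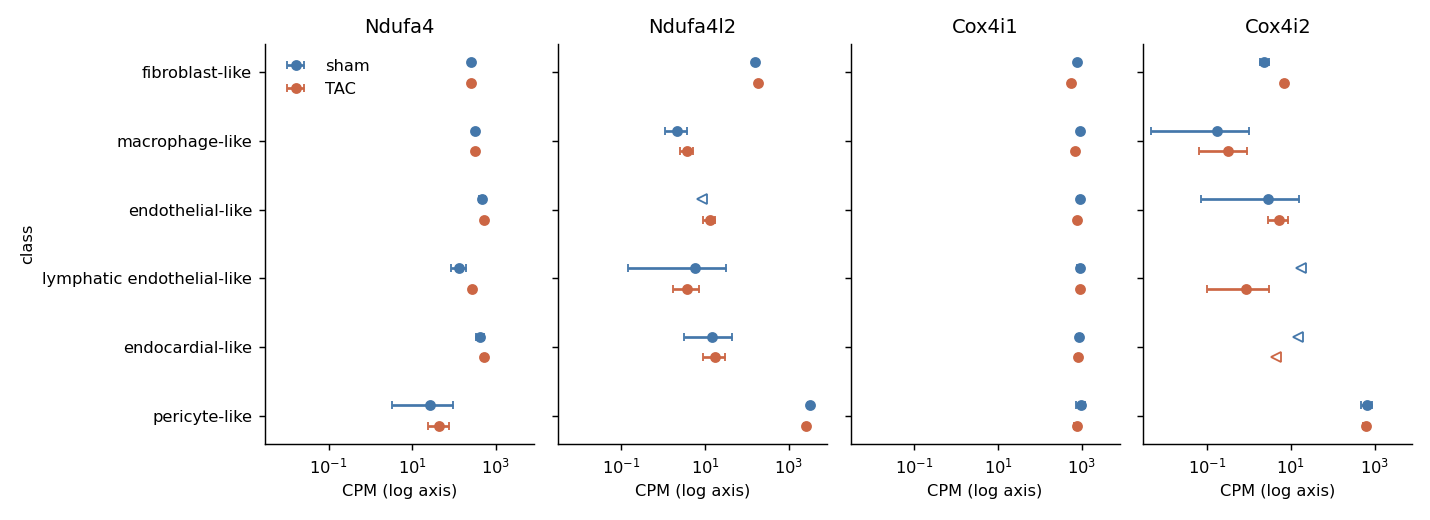
CPM of Ndufa4, Ndufa4l2, Cox4i1 and Cox4i2 by cell class and library on a log axis, with 95% intervals for counting error only; open triangles stand for the 3 UMIs that a count of 0 allows. Pericyte-like cells have 3184 and 2505 CPM of Ndufa4l2 where Ndufa4 has 26.5 and 44.2 CPM.

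The fibroblast-like level of Ndufa4l2 was set beside that of other pericyte transcripts. Those transcripts are themselves markers of the pericyte-like gate, and barcodes passing that gate were kept out of the fibroblast-like class. Their low shares are partly set by the gate, so they are no like-for-like gauge of free RNA in the droplets. The fibroblast-like level of Ndufa4l2 was 4.78% of the pericyte-like level in sham and 7.15% in TAC. The corresponding shares were 0.0294% and 0.0550% for Rgs5, 0.113% and 0.107% for Kcnj8, 0.0288% and 0.0459% for Higd1b and 1.80% and 2.26% for Steap4. For Cox4i2, which like Ndufa4l2 was not a gate marker, they were 0.358% and 1.13%. After each barcode was thinned to 2000 UMIs, 25.1% of 5932 sham and 28.9% of 5324 TAC fibroblast-like barcodes held a Ndufa4l2 UMI (44.6% and 74.2% unthinned). The share was 0.630% and 0.529% in macrophage-like barcodes (1.09% and 2.70% unthinned).

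Pericyte-like cells also had a higher sum than fibroblast-like cells for each nuclear complex. None of these sums includes Ndufa4l2, but that of complex IV includes Cox4i2, at 650 and 612 CPM in sham and TAC pericyte-like cells. Complex I summed to 6434 and 6946 CPM in sham and TAC pericyte-like cells where fibroblast-like cells had 4247 and 4530 CPM, and complex IV to 5028 and 4829 CPM where they had 2400 and 2723 CPM. Of the nuclear members, 58 of 79 were at least 25% higher than in fibroblast-like cells in sham and 2 at least 20% lower, where 60% and 21.2% of all genes were. In TAC 61 of 78 were higher and 2 lower (all genes 49.7% and 24.5%). All genes were thus also more often higher than lower in pericyte-like cells, in both libraries. These counts compare 2 classes of the same libraries, and the pericyte-like levels rest on 34 and 69 barcodes.

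The other class differences among nuclear members were smaller. Ndufa8, a complex I subunit of the intermembrane space, had 293 and 355 CPM in endothelial-like cells and 96.0 and 96.7 CPM in fibroblast-like cells, a ratio of 3.05 in sham and 3.67 in TAC. Lymphatic endothelial-like cells had 158 and 182 CPM and endocardial-like cells 150 and 153 CPM of it, so the other endothelial classes were nearer to fibroblast-like cells. Atp5j, a subunit of the peripheral stalk, had 739 and 667 CPM in endothelial-like cells and 325 and 301 CPM in macrophage-like cells, the highest and lowest of the 5 classes with at least 50 barcodes in each library. Its gene overlaps Gabpa on the opposite strand. Macrophage-like cells were also lowest for Ndufb4, with 90.8 CPM against 203 CPM in sham lymphatic endothelial-like cells, and for Ndufv1, which carries the NADH site, with 60.4 CPM against 135 CPM in TAC lymphatic endothelial-like cells. Sham Ndufs5 was 105 CPM in macrophage-like and 232 CPM in lymphatic endothelial-like cells.

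Isoforms of heart and skeletal muscle were near 0. Cox6a2 had 1.63 and 1.94 CPM in fibroblast-like cells and 3.87 and 8.32 CPM in macrophage-like cells. Cox7a1 had 1.31 and 0.993 CPM and 2.46 and 5.20 CPM in the same classes, and Cox8b 0.510 and 1.64 CPM in fibroblast-like cells. Cardiomyocyte transcripts were present in the same classes, unevenly over barcodes as given above. Per 100 UMIs of the cardiomyocyte list, Cox6a2 had 2.27 and 2.62 UMIs in macrophage-like cells and 0.857 and 0.734 in fibroblast-like cells. The part of cardiomyocyte RNA in these levels was not tested. The common forms Cox6a1 (133 and 164 CPM), Cox7a2 (166 and 201 CPM) and Cox7b (143 and 172 CPM) were the ones read in fibroblast-like cells, and Cox6b2 and Cox7b2 had at most 3.24 and 0.0150 CPM there.

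Other mitochondrial lists had sums near or below those of sham. The 46 assembly factors summed to 1195 and 1224 CPM in fibroblast-like cells (1.02, 1.01 to 1.04), and 4 of 33 tested were at least 25% higher and 3 at least 20% lower, with Pet100, a complex IV factor, at 6.2 and 13.6 CPM. For these and the following lists the shares over all genes in fibroblast-like cells are the 15.9% higher and 21.5% lower given above. Electron carriers and exchange proteins summed to 2510 and 2289 CPM (0.912), with 1 of 17 higher and 1 lower. The lower one was Etfa, of the flavoprotein that takes electrons from fatty acid oxidation, at 238 and 138 CPM. Enzymes of the TCA cycle and pyruvate entry summed to 1747 and 1534 CPM (0.878), with 3 of 22 higher and 5 lower, among them Suclg2 at 46.1 and 22.1 CPM. Regulators of mitochondrial biogenesis summed to 314 and 252 CPM (0.803), with 1 of 9 higher and 4 lower, including the nuclear receptor Esrra (18.7 and 11.4 CPM).

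Macrophage-like cells were similar, with ratios of 1.02 for assembly factors, 0.864 for carriers, 0.902 for the TCA cycle and 0.881 for regulators. Endothelial-like cells had 0.970, 0.839, 0.883 and 0.903. Genes for the expression of mitochondrial DNA summed to 383 and 366 CPM in fibroblast-like cells (0.955), with 2 of 12 higher and 3 lower. The higher ones included Slirp, a small protein that stabilises mitochondrial mRNAs, at 18.4 and 32.5 CPM. Hypoxia and HIF target genes were higher in TAC, 811 and 1125 CPM in fibroblast-like cells (1.39), with ratios of 1.41 and 1.43 in macrophage-like and endothelial-like cells. In fibroblast-like cells 6 of 11 were higher and 1 lower. Ddit4, an inhibitor of mTORC1 that also answers to other stresses, had 21.8 and 113 CPM, Slc2a1, a glucose transporter, 10.7 and 18.7 CPM, and Ldha, a lactate dehydrogenase subunit, 272 and 426 CPM.

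Barcodes over the mitochondrial limit were more common in TAC: 0.488% in sham and 2.15% in TAC of fibroblast-like barcodes, 2.79% and 5.58% of macrophage-like and 2.11% and 4.31% of endothelial-like barcodes. In the TAC library, fibroblast-like barcodes over the limit had 9377 UMIs of nuclear subunits per 1000000 non-mitochondrial UMIs, where barcodes with 4% to 6% had 14156. The 30 sham fibroblast-like barcodes over the limit had 12375. In TAC macrophage-like cells the nuclear level was 15279 at 4% to 6% and 9273 over the limit. The TAC fibroblast-like barcodes over the limit had a median of 1926 UMIs and 57680 UMIs of the nuclear RNA Malat1 per 1000000, against 15416 at 4% to 6%, so they differed in more than their mitochondrial share.

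Sums were also compared between barcodes of a class with and without a UMI of a state marker. At 2000 UMIs per barcode, TAC fibroblast-like cells with a UMI of Postn, a marker of activated fibroblasts, had 34430 CPM of mitochondrial and 13493 CPM of nuclear subunits, and those without had 35878 and 13184 CPM. Macrophage-like cells with a UMI of Ccr2, the chemokine receptor of monocyte-derived macrophages, had lower mitochondrial sums than those without in both libraries, 43960 and 48534 CPM in sham and 54680 and 59151 CPM in TAC. Those with a UMI of Timd4, a marker of resident macrophages, had 13829 CPM of nuclear subunits in sham and those without had 12625 CPM, while their mitochondrial sums were 47460 and 47914 CPM. In TAC, where 34 barcodes held a Timd4 UMI, the nuclear sums were 14074 and 14111 CPM and the mitochondrial sums 52074 and 57986 CPM. TAC endothelial-like cells with a UMI of Rbp7 had 52577 CPM of mitochondrial subunits and those without had 47700 CPM, while their nuclear sums were 16442 and 17572 CPM.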

How the data were processed

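The deposited values are UMI counts per gene and barcode for 2 libraries of mouse heart cells. Per the submitters' processing notes, Cell Ranger and Seurat were used with genome mm10 (Cell Ranger 3.1.0, per the file headers), and the annotation release is not given in the sources used here. Barcodes with at least 500 genes, at least 1000 UMIs and at most 15% mitochondrial UMIs were kept, and doublets called by Scrublet (Scanpy 1.11.5, expected rate 0.07) were removed: 99 sham and 163 TAC barcodes (1.243% and 2.038%). Barcodes were put in a class where the markers of that class took at least a set number of every 10000 UMIs, from 10 for B cell-like and T and NK-like cells to 150 for fibroblast-like cells, with 3 or more distinct markers; these levels were set after the marker distributions had been seen, and no gate was set for smooth muscle, Schwann or cardiomyocyte markers. UMIs were summed by class and library. Levels are CPM with exact Poisson intervals, and ratios have exact conditional intervals (95%); both cover counting error only. The calculation of ratios and intervals was run on simulated Poisson counts. These follow the counting model behind the intervals, so they cannot show errors from library, animal or depth. No test between libraries was made, as there is 1 per group. A count of 0 allows up to 3 UMIs. The members and lists were chosen with earlier results of these data known. Named genes are the mitochondrial genes, the 4 largest ratios in each direction per class with at least 200 barcodes in each library (50 CPM or more; endothelial-like cells, with 139 in sham, fall below this), the 8 members with the widest spread over classes, the isoform sets, the Sdh genes and up to 3 genes per list; Uqcr10, Uqcr11, Uqcrq, Cox7c and Atp5k were chosen after their values were seen. Transcript lengths and coordinates are from GENCODE vM21 (mm10), which matched 30934 of 31053 gene IDs and all 98 members; promoters are from RefSeq. Alternatives covered the mitochondrial limit, the filters, doublets, gates, denominators, thinning to 2000 UMIs and equal weight per barcode; the sums over members of 700 bases or more were added after seeing the data. Scripts used Python 3.11.15, NumPy 2.4.6, SciPy 1.17.1, pandas 2.3.3 and matplotlib 3.10.9.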

Additional observations from a re-analysis of the deposited data

Results flagged for a closer look

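The following TAC to sham ratios lay on opposite sides of 1 in different cell classes, each with a counting interval that left out 1. The difference between the classes was not tested, since each class has 1 library per group. mt-Atp6 had 0.871 in fibroblast-like cells, 1.14 in macrophage-like cells and 1.06 in endothelial-like cells, and the sum of the mitochondrial complex V genes, which mt-Atp6 dominates, had 0.871, 1.14 and 1.06. mt-Nd2 had 0.950 in fibroblast-like cells, 1.09 in macrophage-like cells and 1.27 in endothelial-like cells. mt-Nd1 had 0.907 in macrophage-like and 1.21 in endothelial-like cells. The sum of the mitochondrial complex I genes had 0.974 in fibroblast-like, 1.07 in macrophage-like and 1.20 in endothelial-like cells.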

How the results depend on the processing

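The mitochondrial sums were higher in TAC in the 3 largest classes under every alternative run. In fibroblast-like cells the ratio of 1.03 became 1.06 with a limit of 10% mitochondrial UMIs, 1.05 with no limit, 1.05 over UMIs from neither mitochondrial nor ribosomal protein genes, 1.05 after thinning to 2000 UMIs, 1.04 with equal weight per barcode and 1.04 with a stricter gate. In macrophage-like cells 1.17 became 1.18 over non-mitochondrial UMIs, 1.20 without mitochondrial and ribosomal UMIs, 1.21 thinned, 1.18 with equal weight and 1.16 with the stricter gate. In endothelial-like cells 1.24 became 1.27 with the 10% limit, 1.21 with no limit and 1.26 without mitochondrial and ribosomal UMIs. It became 1.46 thinned, 1.30 with equal weight, 1.16 with the stricter gate and 1.21 with no minimum of genes or UMIs. Thinning also left out barcodes under 2000 UMIs. In this class that took out 69 sham barcodes and kept 70, and took out 43 TAC barcodes and kept 556. The thinned ratio therefore rests on other cells as well as on equal depth.

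The nuclear ratio became 1.08 in fibroblast-like and 1.13 in macrophage-like cells without mitochondrial and ribosomal UMIs, and 1.06 in fibroblast-like cells after thinning. An alternative added after seeing the data was the sum over members with a median annotated length of 700 bases or more. It leaves out the short members by construction. Over the longer members the direction turned to 0.930 in fibroblast-like, 0.957 in macrophage-like and 0.957 in endothelial-like cells. By longest annotated length, members from 700 to 1000 bases had ratios above 1 in each of these classes, as given above. By median length, the members at least 25% higher then numbered 5, 4 and 6. In fibroblast-like cells these were 2 of 19 from 700 to 1000 bases (all genes 15.0%) and 3 of 19 above (14.7%). Macrophage-like cells had 2 of 18 (17.4%) and 2 of 19 (19.3%), and endothelial-like cells 3 of 19 (26.4%) and 3 of 19 (24.6%). These counts were near or below the shares over all genes of that length. Members at least 20% lower went from 5 of 75 (all genes 18.6%) to 3 in macrophage-like cells without mitochondrial and ribosomal UMIs. In endothelial-like cells they went from 6 of 76 (all genes 35.2%) to 13 after thinning, which kept only 70 of 139 sham barcodes. The share over all genes was not computed under these alternatives, and the cause was not tested. Ndufa4l2 in macrophage-like cells, with a ratio of 1.72, turned to 0.840 after thinning and 0.962 with equal weight per barcode; the cause was not tested.

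Of 1476 other values under the alternatives, 1330 stayed within the counting interval of the main value, and 63 of the 144 that moved without turning did so after thinning. No paired analysis was possible because each group has 1 library, and for the same reason no library was left out. Depth limits the sham values of the 7 classes other than fibroblast-like and macrophage-like cells, each with 139 barcodes or fewer.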
